A study of Mus musculus with 7 samples.

Results

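The strongest binding sites of estrogen receptor β (ERβ, the product of Esr2) in the mouse ovary were 377 of the 2918 sites that were called in all 3 ERβ ChIP-seq replicates. ChIP-seq sequences the DNA that an antibody brings down with a chromatin protein, and the input is the same kind of chromatin without the antibody. A site was a maximum of the mean normalised signal in 200 bp that reached at least 2, exceeded 4 times the input and 4 times the mean of the 10 kb around it, and lay within 200 bp of such a maximum in each of the other replicates. The strongest sites were chosen on the measured signal itself: the mean of the 3 ChIP signals was at least 16 times the mean of the 2 inputs, with the input set to no less than its genome mean. Of the 2918 sites, 12.9% met this fold of 16, a share that only describes the threshold. The other 2541 sites served as the comparison for what the rule had not used, namely DNA sequence and position.

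The 5 libraries used came from ovaries of mice wild-type for ERβ, of a line backcrossed on C57BL/6J. Each ChIP replicate pooled 14 ovaries of 7 mice aged 4 to 16 weeks, with no selection for a phase of the estrous cycle, and the ERβ antibody was PPZ0506. The 2 inputs were ovary chromatin, and 2 ChIP samples of ERβ knockout ovaries were not analysed here, so the signal that the antibody gives without its target was not compared. The files hold coverage and no read counts, so the depth behind each value is unknown. ERβ is known mainly from granulosa cells, and in whole ovaries fewer cells that carry the receptor and less binding per cell cannot be told apart.

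ERβ is a ligand-activated nuclear receptor of the follicle, and mice without it ovulate poorly. It binds DNA as a dimer at the estrogen response element (ERE), a pair of inverted half-sites with a spacer, written here as GGTCANNNTGACC. Each receptor of the dimer reads the half-site GGTCA. Orphan receptors of the NR5A group, SF-1 and LRH-1, bind an extended half-site as monomers, and GATA, FOXO, RUNX and AP-1 factors are further regulators of granulosa cell genes.

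The best ERE match of the strongest sites is printed with 10 bases on each side, because most of these sites depart from the perfect element in a base or a pair of bases. The sequences are the forward strand of GRCm38 (mm10) as held by RefSeq, and capitals mark the fixed ERE bases that match, so that a lower-case letter inside the element is a spacer base or a mismatch. The names are those of the nearest protein-coding gene.
Car15, chr16:17856145-17856157: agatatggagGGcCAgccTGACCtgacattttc
Sema7a, chr9:57938919-57938931: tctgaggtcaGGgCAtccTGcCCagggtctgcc
Rybp, chr6:100060061-100060073: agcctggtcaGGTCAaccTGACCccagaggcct
Lyrm9, chr11:78814643-78814655: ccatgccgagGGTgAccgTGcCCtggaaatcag
Fdft1, chr14:63164813-63164825: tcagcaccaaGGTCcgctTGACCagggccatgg
Rara, chr11:98955619-98955631: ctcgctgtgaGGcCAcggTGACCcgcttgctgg
Mark1, chr1:185067867-185067879: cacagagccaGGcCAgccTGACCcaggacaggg
Gramd1b, chr9:40442994-40443006: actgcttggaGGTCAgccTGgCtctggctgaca

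The best ERE is also shown for sites nearest to Greb1, Inhbb, Nr5a1, Nrip1 and Vegfa, from the lists of ovarian and estrogen-related genes described below, and for the promoter site of Map2k1, which is in no list and has a perfect ERE. Of the 26 sites at listed genes 22 had an ERE of at most 2 mismatches, and the sites with 3 mismatches, such as those nearest to Amh, Inhba and Nr5a2, are not shown.
Greb1, chr12:16790610-16790622: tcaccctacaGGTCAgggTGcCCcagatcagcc
Greb1, chr12:16764907-16764919: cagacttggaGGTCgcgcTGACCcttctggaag
Greb1, chr12:16760531-16760543: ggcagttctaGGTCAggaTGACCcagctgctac
Inhbb, chr1:119386623-119386635: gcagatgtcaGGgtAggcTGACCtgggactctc
Inhbb, chr1:119431870-119431882: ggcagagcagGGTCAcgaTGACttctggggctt
Nr5a1, chr2:38704534-38704546: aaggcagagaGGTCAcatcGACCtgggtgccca
Nrip1, chr16:76321761-76321773: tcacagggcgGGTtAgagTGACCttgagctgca
Vegfa, chr17:46026512-46026524: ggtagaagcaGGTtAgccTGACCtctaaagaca
Map2k1, chr9:64253929-64253941: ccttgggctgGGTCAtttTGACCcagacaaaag

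Some of the strongest sites held several separate EREs of at most 2 mismatches within their 200 bp. The windows below are examples, given whole so that the spacing of the elements can be read. Of the 76 strongest sites with at least 2 such EREs, only 12 held at least 3. Not shown are, among others, the sites nearest to Zfpm1, with 8, and to Chst11, with 4. Capitals mark the matching fixed bases of each counted ERE. The site in intron 3 of Macrod1, nearest to Flrt1, held 7, that in intron 14 of Srbd1 held 5, that in intron 2 of Fam163a, nearest to Tor1aip2, held 10, and the intergenic site upstream of Foxl2 held 4.
Flrt1, chr19:7150911-7151110: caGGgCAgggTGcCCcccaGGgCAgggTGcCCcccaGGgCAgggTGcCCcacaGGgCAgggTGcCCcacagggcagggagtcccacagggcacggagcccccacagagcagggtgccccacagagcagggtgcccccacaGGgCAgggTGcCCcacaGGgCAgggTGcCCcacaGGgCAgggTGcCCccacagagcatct
Srbd1, chr17:86073311-86073510: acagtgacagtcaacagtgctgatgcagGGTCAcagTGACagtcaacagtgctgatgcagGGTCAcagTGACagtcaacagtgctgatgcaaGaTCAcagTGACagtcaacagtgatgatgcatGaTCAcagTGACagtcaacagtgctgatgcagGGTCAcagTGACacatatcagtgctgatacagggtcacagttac
Tor1aip2, chr1:156084551-156084750: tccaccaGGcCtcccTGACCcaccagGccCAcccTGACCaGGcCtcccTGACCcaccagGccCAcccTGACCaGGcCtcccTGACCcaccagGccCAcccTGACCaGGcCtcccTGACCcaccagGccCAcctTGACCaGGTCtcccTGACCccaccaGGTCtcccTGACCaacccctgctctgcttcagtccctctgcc
Foxl2, chr9:98935851-98936050: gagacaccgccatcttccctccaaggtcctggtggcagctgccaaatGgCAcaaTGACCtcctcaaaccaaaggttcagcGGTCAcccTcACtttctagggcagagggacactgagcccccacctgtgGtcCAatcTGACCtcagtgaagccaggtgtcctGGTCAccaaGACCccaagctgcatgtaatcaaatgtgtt

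Other strongest sites had no ERE of at most 2 mismatches. The 4 windows below are among the 5 strongest of that kind, and the fifth, which has the highest fold of them and none of the 5 other motifs searched, is given by its values only. Capitals mark a half-site, an NR5A motif (TCAAGGTCA or CCAAGGTCA), a GATA motif (AGATAA or TGATAA) or a FOXO motif (TGTTTAC) on either strand. The windows nearest to Akr1cl and Mycn held no half-site, and the window nearest to Cog6 held a half-site only inside its NR5A motif. A FOXO motif was in the first 3 windows and not in the window nearest to Dap.
Akr1cl, chr1:65040901-65041100: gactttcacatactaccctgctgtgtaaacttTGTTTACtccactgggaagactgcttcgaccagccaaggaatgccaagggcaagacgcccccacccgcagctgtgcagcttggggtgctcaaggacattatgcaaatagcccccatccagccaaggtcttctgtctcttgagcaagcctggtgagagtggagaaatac
Cog6, chr3:52775241-52775440: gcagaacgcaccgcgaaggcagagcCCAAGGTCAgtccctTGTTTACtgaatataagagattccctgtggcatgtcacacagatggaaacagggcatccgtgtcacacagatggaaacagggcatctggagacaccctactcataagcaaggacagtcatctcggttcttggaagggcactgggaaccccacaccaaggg
Mycn, chr12:12904591-12904790: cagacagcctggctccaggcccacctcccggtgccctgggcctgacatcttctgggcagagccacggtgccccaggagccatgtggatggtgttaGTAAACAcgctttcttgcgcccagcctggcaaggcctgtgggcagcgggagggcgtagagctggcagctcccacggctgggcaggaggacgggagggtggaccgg
Dap, chr15:31237481-31237680: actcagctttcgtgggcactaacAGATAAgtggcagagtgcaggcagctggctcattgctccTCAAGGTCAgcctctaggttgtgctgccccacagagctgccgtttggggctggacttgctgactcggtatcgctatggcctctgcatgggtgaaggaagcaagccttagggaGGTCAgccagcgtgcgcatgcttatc

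The signal of the strongest sites, which chose them, is given first as a description. The median over the 377 sites was 12.1, 15.0 and 14.9 for ChIP replicates 1, 2 and 3, against 0.683 in Input 1 and 0.557 in Input 2. The input at the strongest sites had a median of 0.622 and at the other sites 0.626. Replicate 1 was the lowest of the 3 ChIP libraries at 300 of the 377 sites, and at 1552 of the 2541 other sites. The fold had a median of 21.2, with quartiles of 18.1 and 26.2 and a highest value of 69.8. In 151 sites the fold was under 20, and in 37 it was 32 or more. With 12.9% of the sites, the strongest sites held 29.3% of the mean ChIP signal of all 2918.

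**Figure D1:**
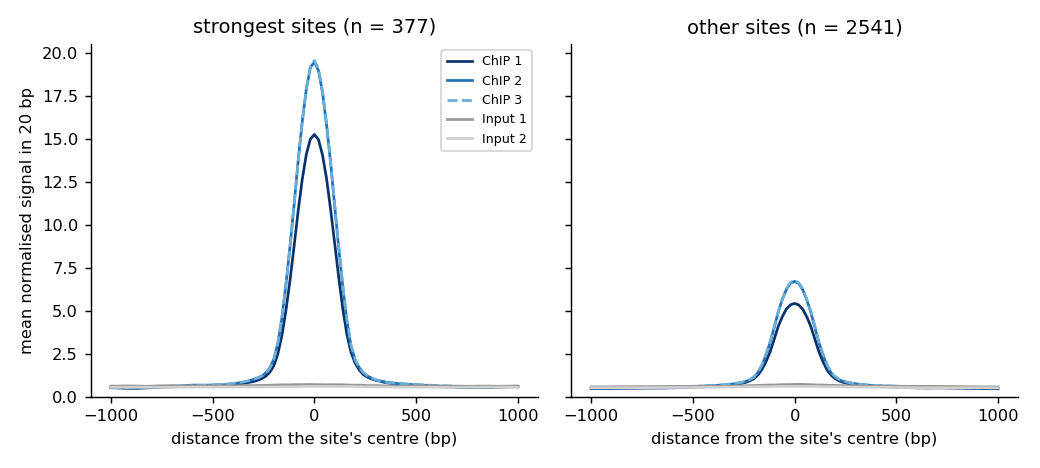
Mean normalised signal in 20-bp steps around the centre (x axis, bp) of the 377 strongest sites (left) and the 2541 other sites (right), 1 line per library, replicate 3 dashed over replicate 2. At the centre of the strongest sites the ChIP libraries averaged 15.2, 19.5 and 19.6, and the inputs 0.709 and 0.603.

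The peaks were narrow. At the strongest sites the median width at 50% of the peak's height was 220 bp in each of the 3 ChIP libraries. The other sites had median widths of 220 to 240 bp. At 1 kb from the centre the ChIP signal had returned to between 0.524 and 0.615, and the inputs there lay between 0.547 and 0.620.

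The 25 strongest sites spanned folds of 69.8 to 34.5. The ChIP signals of these sites lay between 10.5 and 46.7 and their inputs between 0.28 and 1.30. Even the lowest ChIP library of a site was at least 20.3 times the higher of its inputs. Replicate 1 was the lowest ChIP library at all 25. Of the 25, 13 lay in an intron, 11 were intergenic, 1 lay at a transcript end and none in a promoter. An ERE without mismatch was present in 1, 1 mismatch in 14, 2 mismatches in 8 and 3 mismatches in 2.

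**Figure D2:**
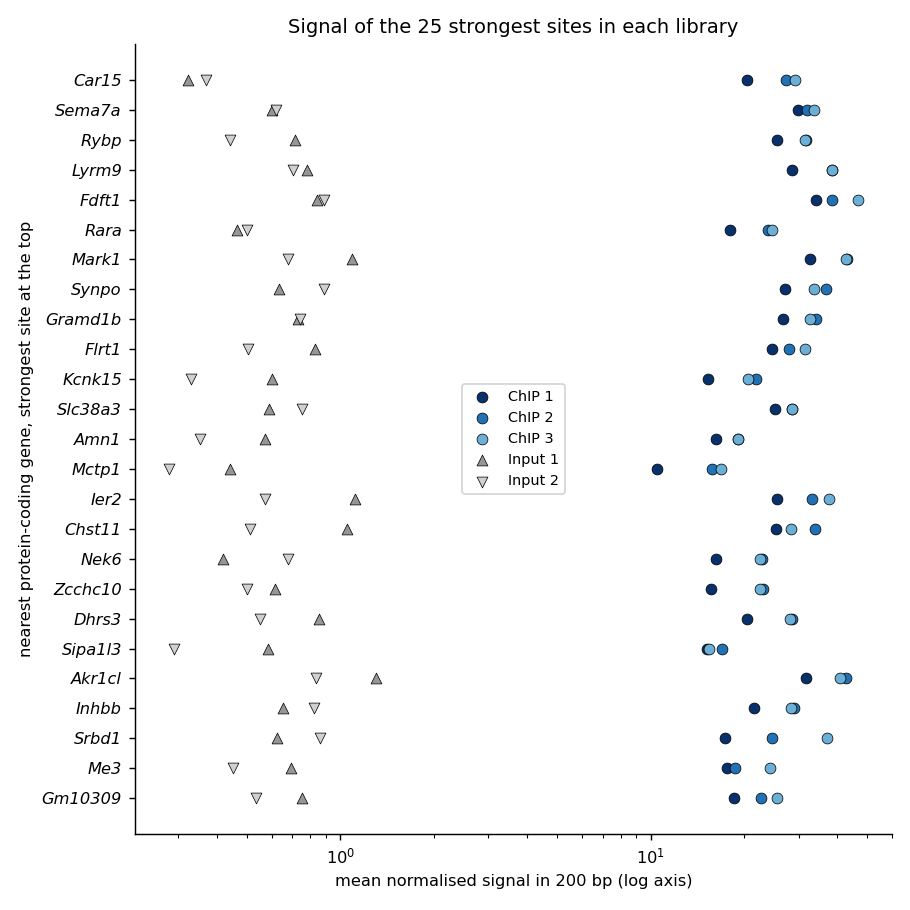
Mean normalised signal in 200 bp (log axis) of the 25 strongest sites in each of the 5 libraries, named by the nearest protein-coding gene. The ChIP signals (circles, 10.5 to 46.7) and the inputs (triangles, 0.28 to 1.30) do not overlap, which the choice of the sites ensures.

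The strongest site of all, at chr16:17856081-17856280, lay in intron 7 of 10 of Dgcr2, the gene of a putative adhesion receptor, and 17.8 kb upstream of Car15, a carbonic anhydrase. The 3 ChIP replicates read 20.4, 27.4 and 29.3 there, over inputs of 0.324 and 0.368. The fold was 69.8 ± 12.7 (SD, n = 3 replicates over the same inputs), and 74.3 without the lower limit on the input. The mean input lay under the genome mean of 0.368 at 15 strongest sites, this one among them. Of the next 7 sites, 6 had a higher mean ChIP signal than the 25.7 of this site.
The second site lay 1.18 kb upstream of Sema7a, a membrane-anchored semaphorin, at chr9:57938831-57939030. Its signals were 29.95, 31.98 and 33.6 against inputs of 0.601 and 0.62, a fold of 52.2 ± 3.02 (SD, n = 3).
The strongest site with an ERE without mismatch was the third, 227 kb downstream of the nearest start of Rybp, a Polycomb-associated protein, at chr6:100059941-100060140. The ChIP replicates read 25.6, 31.7 and 31.5 and the inputs 0.715 and 0.44. Its fold was 51.3, and a further half-site directly abutted its ERE in the sequence above.

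Fdft1, which encodes squalene synthase of the cholesterol pathway, held the fifth site in its intron 3 of 9 (chr14:63164691-63164890). The signals of 34.2, 38.5 and 46.7 were the highest mean of the 25, against inputs of 0.837 and 0.884, and the fold was 46.2 ± 7.35 (SD, n = 3). The sixth lay in intron 3 of 9 of Rara, the retinoic acid receptor α, 4.83 kb upstream of the nearest start of that gene (chr11:98955481-98955680). Its signals of 18.1, 23.97 and 24.6 stood over inputs of 0.462 and 0.501. The seventh, intergenic and 68.3 kb upstream of the kinase gene Mark1, had signals of 32.5, 43.0 and 42.8 over inputs of 1.09 and 0.679.
Gramd1b, whose product moves cholesterol between membranes, had a site in intron 1 of 20 with signals of 26.8, 34.2 and 32.7. Kcnk15, a potassium channel gene, was nearest to a site in intron 2 of 5 of Rims4 with signals of 15.4, 21.9 and 20.6. Slc38a3, a glutamine transporter gene, had its site at a transcript end, with signals of 25.2, 28.6 and 28.6. A site counted as at a transcript end if it lay near the end of any protein-coding transcript, even inside an intron of another. Folds at these 3 sites were 42.5, 41.5 and 40.9.
Of the 13 intronic sites among the 25, 6 lay in a gene other than the one whose start was nearest, as at Dgcr2. Over all members this held for 43 of the 176 intronic sites. The nearest gene is therefore a name for a site and not a target.

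The site with the highest fold among those with no ERE of at most 2 mismatches lay 6.63 kb upstream of Synpo, an actin-associated protein, on chromosome 18. Its ChIP signals were 27.1, 36.9 and 33.6 over inputs of 0.634 and 0.888, a fold of 42.7. A second strongest site lay 12.5 kb upstream of the same gene, with a fold of 19.2.
The next such sites were those nearest to Akr1cl, an aldo-keto reductase gene (31.7, 42.6 and 40.8 over inputs of 1.30 and 0.831), Cog6 (20.5, 28.4 and 27.7 over 0.744 and 0.802), Mycn and Dap. Their folds were 36, 33.02, 32.3 and 32.1. The best ERE of each of these 5 sites had 3 mismatches.

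The fold was also read in libraries that had not chosen the sites. In 6 combinations, sites were called with 2 ChIP replicates and 1 input, those of fold 16 or more were kept, and their fold was read in the third ChIP replicate over the other input. The kept sites numbered 314 to 582. Their median fold was 20.9 to 22.0 when chosen and 13.4 to 25.2 when read in the held-out libraries. The lowest value came from replicate 1 over Input 1 and the highest from replicate 3 over Input 2. Read over Input 1, the medians were 13.4, 18.3 and 17.8 for ChIP replicates 1, 2 and 3. Over Input 2 they were higher for each replicate, 18.5, 24.6 and 25.2. The sites below 16 in the same choosing libraries had held-out medians of 4.87 to 8.74. Of the kept sites, 84.9% to 100% had a held-out fold of at least 8 and 36.3% to 85.7% one of at least 16. The combinations share libraries, so no test was made of them.

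**Figure D3:**
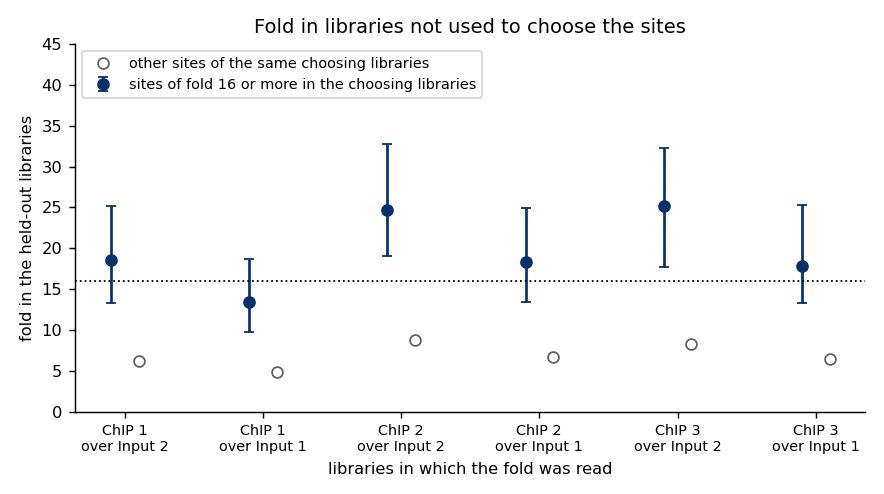
Fold (y axis) in the ChIP replicate and input named on the x axis, neither of which had chosen the sites. Filled points are medians, with quartiles as bars, of the sites of fold 16 or more in the choosing libraries (13.4 to 25.2), open points are medians of the other sites (4.87 to 8.74), and the dotted line marks 16.

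The member sites varied in how alike the replicates were. The highest ChIP signal was a median of 1.36 times the lowest, and it exceeded 2 times the lowest at 10 sites and 3 times at 2 sites. Those 2 sites stood apart. An intergenic site on chromosome 17, 369 kb upstream of Arid1b, had ChIP signals of 5.36, 48.1 and 27.5 over inputs of 0.481 and 1.86. Another, 99.7 kb upstream of Gm8882 on chromosome 6, had 2.14, 20.3 and 12.3, and 0.17 and 0.64 in the inputs. At both, ChIP replicate 1 was the lowest ChIP library and Input 1 was lower than Input 2. Both centres lay in soft-masked repeats, and their best EREs had 6 and 3 mismatches. These 2 sites were singled out after their values had been seen.

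Names in the track headers group ChIP replicate 1 with Input 1, and replicates 2 and 3 with Input 2. Within the first group the strongest sites had a median fold of 17.0, and 222 of 377 reached 16. Within the second the median was 25.4, and 365 reached 16. Both held for 211 sites. Of the other sites, 18 and 211 reached 16 within each group, and none did so in both. The medians of the other sites were 6.24 and 8.97.

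An ERE of at most 2 mismatches was present in 312 of 377 strongest sites (82.8%) and in 69.8% of the other sites, a difference of 13.0 percentage points (95% Newcombe interval 8.49 to 16.9). That difference was called at the level adjusted over the 16 features compared (interval 6.00 to 18.7). By class of fold the share was 57.8% under 6, 73.1% at 6 to 8, 72.1% at 8 to 12 and 77.2% at 12 to 16. Within the strongest sites it was 79.5% at 16 to 20, 84.7% at 20 to 32 and 86.5% at 32 or more. The shares by class were not tested and show no step at 16. A site with a half-site but no such ERE was rarer among the strongest, 14.1% against 22.6%, a difference of -8.53 points (-12.1 to -4.35, adjusted -13.7 to -1.99), which was also called. This class leaves out sites with such an ERE, so its difference is not independent of the one before. Its share was 28.9% under a fold of 6, 20.9% at 6 to 8 and 21.6% at 8 to 12. Next to the threshold it was 17.9% at 12 to 16 and 18.5% at 16 to 20. It was 11.6% at 20 to 32 and 8.11% at 32 or more. Among the sites without such an ERE, a half-site was present in 81.5% of the strongest (95% Wilson interval 70.4 to 89.1) and 74.7% of the others (71.5 to 77.7), which was not tested. The half-site difference was no longer called without Input 2 (-5.85) or with the motifs searched in 100 bp (-5.30). No other feature was called. In 200-bp windows across the assembly an ERE of at most 2 mismatches occurred in 6.68%.

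For the perfect element no difference was detectable with this number of sites. It was present in 29 strongest sites (7.69%) and in 7.12% of the others, a difference of 0.57 points with a 95% interval of -1.95 to 3.84. At most 1 mismatch was found in 40.8% and 35.4%, where the 95% interval of 0.27 to 10.8 left out 0 but the adjusted interval of -2.27 to 13.6 did not. Of the 210 sites with a perfect ERE 13.8% were among the strongest, as were 14.8% of those with 1 mismatch, 15.3% with 2 and 8.33% with 3. These shares by mismatch were not tested. Of 2357 perfect EREs in the assembly, 29 lay in a strongest site, which is 1.23%.

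**Figure D4:**
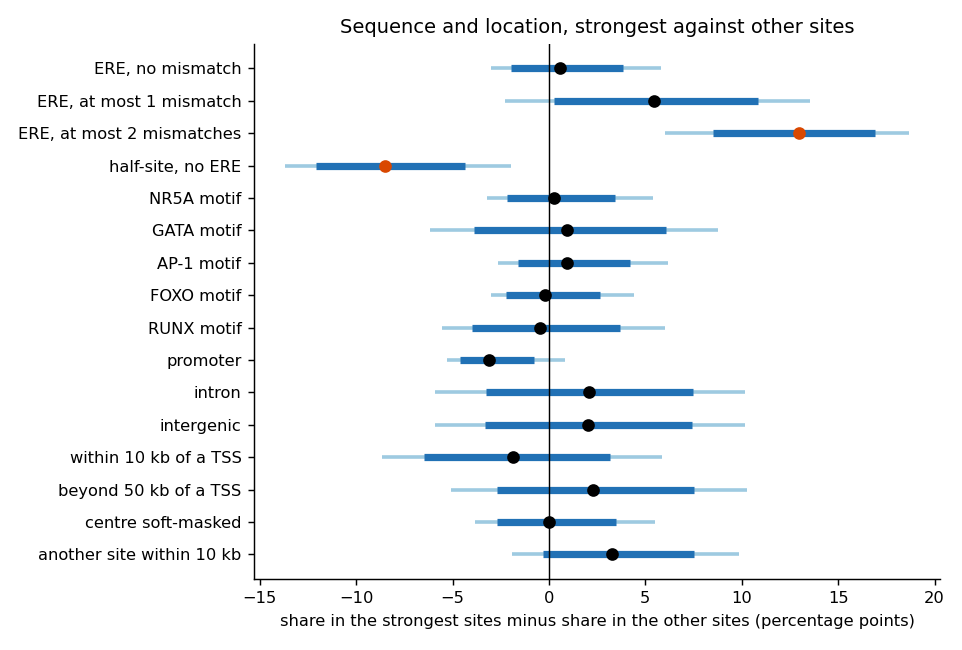
Share of the strongest sites minus share of the other sites (x axis, percentage points) for the 16 features compared, with 95% intervals (dark bars) and intervals adjusted over the 16 (light bars). The orange points, for an ERE of at most 2 mismatches (13.0) and for a half-site without such an ERE (-8.53), are the ones whose adjusted interval leaves out 0.

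Position 3 of the half-site was the most often mismatched in both classes. Counted from the outer end of each arm, position 3, the T of the half-site, was mismatched in 29.8% of the arms of the strongest sites and in 26.2% of the arms of the others. The other positions were mismatched in 7.85% to 14.3% and in 8.07% to 15.0% of the arms. In 252 of the 312 strongest sites with an ERE (80.8%), at least 1 arm was a perfect half-site, compared with 80.4% in the others. An A came directly before the arm, read outward in, in 55.6% and 51.9% of the arms. These counts describe sequence and were not tested.

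Several separate EREs in 1 site were counted next. At least 2 EREs of at most 2 mismatches that did not overlap were present in 76 strongest sites (20.2%, 95% Wilson interval 16.4 to 24.5) and in 252 other sites (9.92%, 8.82 to 11.1). Among the sites with any such ERE the shares were 24.4% and 14.2%. A single ERE was about as frequent in both, 62.6% and 59.9%. The share with 2 or more was 6.37% in sites of fold under 6 and 14.4% at 12 to 16. Inside the threshold it was 15.9% at 16 to 20, 22.8% at 20 to 32 and 24.3% at 32 or more. At least 3 were present in 12 strongest and 20 other sites. With the motifs searched in 100 bp the shares were 10.9% and 5.04%. The count was made after values had been seen, so it has no test, and the tandem arrays printed above are among its members.

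**Figure D5:**
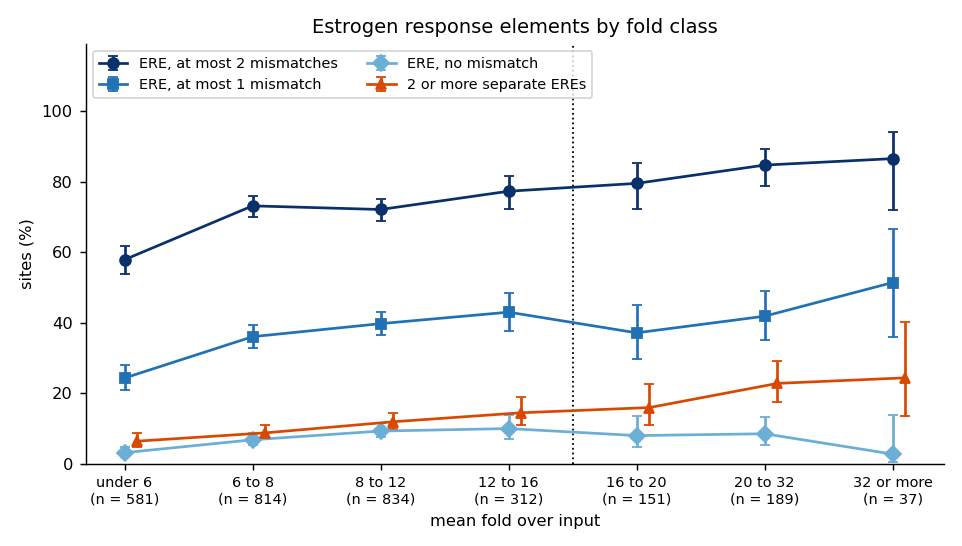
Share of sites (y axis, %) with an ERE of at most 2, at most 1 and no mismatch and with at least 2 separate EREs, by class of mean fold (x axis), with 95% Wilson intervals. The dotted line marks the fold of 16, and the share with at least 2 EREs goes from 6.37% in the lowest class to 24.3% in the highest, while the perfect ERE goes from 3.10% through 9.94% at 12 to 16 and 8.47% at 20 to 32 to 2.70% of the 37 sites at 32 or more, where its interval is 0.479 to 13.8.

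No difference was called for the motifs of other factors. The NR5A motif (TCAAGGTCA or CCAAGGTCA), which contains a half-site, was present in 7.16% of the strongest and 6.93% of the other sites, a difference of 0.24 points (95% interval -2.20 to 3.43). Counting only NR5A motifs that did not overlap the best ERE gave 6.37% and 5.23%. GATA motifs (AGATAA or TGATAA) were in 31.0% and 30.1%, AP-1 motifs (TGACTCA or TGAGTCA) in 7.69% and 6.77%, FOXO motifs in 5.04% and 5.23%, and RUNX motifs (TGTGGT) in 14.6% and 15.1%. The intervals of all 5 differences contained 0, and the widest, that for GATA, ran from -3.89 to 6.08 points. In windows across the assembly the shares were 0.693% for NR5A, 24.1% for GATA, 3.11% for AP-1, 2.98% for FOXO and 13.8% for RUNX.
Of the 65 strongest sites without an ERE of at most 2 mismatches, 53 held a half-site and 12 did not. NR5A motifs were in 7 of the 65 (10.8%, 95% Wilson interval 5.32 to 20.6) and in 7.42% of the other sites without such an ERE. GATA motifs were in 23 (35.4%, against 35.0% of those other sites), RUNX in 6 (9.23%, 14.1%), FOXO in 5 (7.69%, 6.12%) and AP-1 in 3 (4.62%, 7.03%). Each of these shares of the other sites lay inside the Wilson interval of the 65. The sites nearest to Akr1cl, Cog6, Mycn and Spsb1 were 4 of the 5 with a FOXO motif, and all 4 had folds over 30, which was noticed after the values had been seen.

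No difference in location was called. Of the strongest sites, 176 were in an intron of a protein-coding transcript (46.7%), 172 were intergenic (45.6%), 10 in a promoter (2.65%; from 1 kb before to 100 bp after a start), 9 at a transcript end, 5 in coding exons and 5 in UTRs. Promoters made up 5.75% of the other sites. That difference of -3.09 points had a 95% interval of -4.64 to -0.78 and an adjusted one of -5.28 to 0.82, so it was not called. Ranked by ChIP signal alone, the same number of sites had a promoter share 2.69 points above that of the rest. In that ranking 275 of the 377 sites were shared.
The median distance to the nearest protein-coding start was 26.3 kb, against 24.3 kb for the other sites. Within 10 kb of a start lay 27.6% and 29.4%, and beyond 50 kb 34.7% and 32.5%. The site was upstream of its nearest gene in 169 of 377 cases, and in 1115 of the 2541 other sites. Intron 1 held 57 of the 176 intronic members (32.4%) and introns 3 and later 86 (48.9%). Among the intronic other sites the shares were nearly the same, 32.3% and 49.2%. A centre in a soft-masked repeat was found in 8.75% and 8.74%, while 34.3% of windows across the assembly had one. Autosomes held between 9.21 and 22.3 strongest sites per 100 Mb, and the X chromosome held 4, or 2.45 per 100 Mb. The mean signal of the inputs on the X chromosome was low, 0.253 and 0.260 against 0.370 and 0.367 over the genome. Minimum signal and input floor were the same on every chromosome, and their part in this count was not tested. The X chromosome also held few other sites, 37, so that 9.76% of its sites were among the strongest, against 8.67% on chromosome 13 and 12.9% in all.

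The strongest sites had 343 nearest protein-coding genes, of which 32 were nearest to more than 1. Cog6 and Greb1 had 3 each, and the other 30 had 2. Neighbouring strongest sites lay within 10 kb of each other in 12 cases and within 50 kb in 23. The closest pair, 0.54 kb apart, was nearest to Kcnrg. The pair at Inhbb, 45.2 kb apart, had folds of 35.8 and 30.1, the pair at Trib2, 2.41 kb apart, 34.2 and 19.7, and the pair at Sulf2, 6.76 kb apart, 30.9 and 22.2. Another called site within 10 kb was present for 15.9% of the strongest and 12.6% of the other sites (difference 3.28 points, 95% interval -0.33 to 7.50).

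Among the 118 genes of 5 lists on ovarian function, 21 were nearest to at least 1 strongest site, through 26 sites. The lists were written with earlier results of these data known, so their counts are descriptions. Of all 21646 protein-coding genes, 343 (1.58%) were nearest to a strongest site and 2152 (9.94%) to any of the 2918. Estrogen targets and coregulators had 5 of 24 genes and 11 with any site, ovarian transcription factors and nuclear receptors 6 of 24 and 13, ligands, receptors and signalling 7 of 30 and 17, ovulation and matrix 2 of 16 and 3, and steroidogenesis and cholesterol 1 of 24 and 9. Fdft1 was the gene from the list of steroidogenesis, while the sites nearest to Cyp19a1, Hsd17b1 and Scarb1 were among the other sites.

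Of the estrogen targets, Greb1, a coregulator induced by estrogen in many tissues, had 3 strongest sites, all in its intron 1. The signals were 14.9, 19.99 and 19.2 at the site with the highest fold (30.9), 23.5, 28.4 and 33.6 at the next (24.9), and 18.7, 24.2 and 26.1 at the third (18.7), which had the perfect ERE. The inputs were 0.639 and 0.530 at the first, 1.23 and 1.06 at the next and 1.53 and 0.930 at the third, so the order by fold was the reverse of the order by mean input.
Nrip1, a corepressor of nuclear receptors that is needed for ovulation, had a site 1.87 kb downstream of its nearest start with signals of 24.4, 29.96 and 31.5 over inputs of 1.12 and 1.04 (fold 26.5 ± 3.45, SD, n = 3). The 2 sites that were nearest to Myc lay 308 and 497 kb beyond it, with folds of 18.8 and 20.1.

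Several transcription factors that define ovarian cells had a strongest site. Foxl2, which maintains granulosa cell identity, had one 19.3 kb upstream, with signals of 10.4, 14.7 and 13.97 over inputs of 0.475 and 0.44 (fold 28.5). Nr5a1, which encodes SF-1, had a pair in its intron 4 that lay 2.39 kb apart. The stronger read 22.1, 26.7 and 31.3 over 1.15 and 0.799 and the weaker 7.58, 10.1 and 11.2 over 0.564 and 0.617, with folds of 27.3 and 16.3. The site nearest to Nr5a2, the gene of LRH-1, lay 217 kb upstream and had a fold of 18.1.
Gata4 and Gata6, GATA factors of granulosa and theca cells, each had a strongest site in the promoter, 319 and 34 bp before the nearest start. The signals were 23.8, 30.2 and 32.2 over inputs of 1.43 and 1.42 at Gata4, and 14.3, 18.02 and 20.2 over 0.609 and 0.661 at Gata6. Gata4 had the higher signal in each of the 5 libraries and the lower fold, 20.2 against 27.6. Cebpb, a factor of luteinisation, was nearest to a site 72.0 kb downstream with a fold of 27.1.

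Among ligands, Inhbb, the βB subunit of inhibin and activin, had 2 strongest sites, 35.7 kb downstream and 9.56 kb upstream of its start. The signals were 21.5, 29.0 and 28.5 at the first, and 21.2, 21.6 and 21.4 at the second, where the fold of 30.1 had an SD of 0.307 (n = 3). Inhba, the βA subunit, was nearest to a site 440 kb away (fold 24.2). Amh, the anti-Müllerian hormone of small follicles, had a promoter site 233 bp before its start with 13.2 and 13.2 in ChIP replicates 1 and 2 but 6.66 in replicate 3. Its fold was 22.9 ± 7.85 (SD, n = 3), and the median SD over all members was 3.63.
Bmpr1b, a receptor for bone morphogenetic proteins, had a site in intron 2 of 11 (9.36, 11.5 and 11.8 over 0.319 and 0.32). Vegfa, the angiogenic growth factor, had one in intron 2 of 7 (14.9, 19.7 and 17.0 over 1.01 and 0.38). Ihh, a hedgehog ligand, was nearest to a site within intron 2 of Nhej1. Their folds were 29.5 for Bmpr1b, 24.8 for Vegfa and 25.6 for Ihh. Without the lower limit on the input, the fold of the Bmpr1b site was 34.0. The inputs of the Vegfa site differed, and its fold was 45.3 without Input 1 and 17.1 without Input 2. In the list of ovulation and matrix, Fbn2, a microfibril protein gene, had an intronic site with a fold of 30.9 and Thbs1 a site 363 kb away with a fold of 18.1.

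The other promoter members were those of Npr2, the receptor of C-type natriuretic peptide that holds oocytes in meiotic arrest, Ccdc117, Mad2l1, Map2k1, Map2k7, Skil and Perp. Npr2 had signals of 17.8, 15.98 and 29.1 over inputs of 0.721 and 0.751 and the highest fold of the 10 promoter sites, 28.5 ± 9.63 (SD, n = 3). Map2k1 and Map2k7, kinases of MAP kinase cascades, both had a perfect ERE there, with folds of 21 and 17.8. The nearest start of Map2k7 lay 361 bp from that site, which was in the promoter of another of its transcripts. At Npr2, Amh, Skil and Perp the best ERE had 3 mismatches.

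The threshold cut through a continuous range. The 5 sites just inside had folds of 16.003 to 16.04 and were nearest to Rai2, Slc16a1, Tcaf1, Tex14 and Smoc2. The 5 just outside had folds of 15.8 to 15.97 and were nearest to Mtmr2, Etv6, Dot1l, Itgae and Sox4. The ChIP signals of Rai2 were 6.75, 8.20 and 8.22 and those of Mtmr2 4.31, 5.56 and 7.76. Of the 2541 other sites, 30 had a mean ChIP signal above the median of the strongest sites, and their median input was 1.09.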

How the data were processed

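The authors sequenced single reads of 75 cycles, aligned them with STAR to GRCm38 (mm10), kept unique alignments and deposited 1 coverage track per library, made with HOMER. The deposited signal is coverage scaled by the authors to a common library total, so it holds no counts. The treatment of duplicates is not given in the sources used here. The 5 tracks (3 ERβ ChIP, 2 input) were binned to 10 bp, and sites were called by the rule in the report with Python 3.11.15, numpy 2.4.6 and pandas 2.3.3, after tests on simulated data. Annotation was GENCODE M21. Feature shares were compared by Newcombe intervals, with a Bonferroni level over 16 features. These intervals cover counting over sites only, and sites are not replicates. The members, gene lists and tests were chosen with earlier results of these data known. The sites named were the 25 strongest, the 5 strongest without an ERE, members at the listed genes, in promoters or sharing a nearest gene, and the 5 on each side of the threshold. Alternatives changed the threshold, window, floor, libraries, annotation and ranking. Some results at listed genes are not reported here.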

Additional observations from a re-analysis of the deposited data

How the results depend on the processing

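No paired analysis was possible because no test compared the ChIP and input libraries, whose contrast had chosen the sites. Values within the groups of libraries by track name are given instead. The difference for an ERE of at most 2 mismatches was called under each of the 13 alternatives for which it was recomputed, which did not include the minimum signal, the number of replicates with a call or the merging distance. The number of strongest sites was 377, and it became 689 at a fold of 12, 226 at a fold of 20 and 136 with the signal in 400 bp. It was 336 to 507 when a library was left out. In groups by track name, an alternative chosen after the data were seen, it was 240 for ChIP replicate 1 over Input 1. It was 576 for replicates 2 and 3 over Input 2. Read at the same centres, 75 of the 377 members fell under 16 without Input 2 and 19 without Input 1. Without ChIP replicates 1, 2 and 3 in turn, 2, 35 and 35 members fell under it.
The half-site difference lost its call with motifs in 100 bp (-5.30) and in the first track group (-5.25), and it was -10.0 to -5.85 with a library left out. The difference for at most 1 mismatch gained a call at a fold of 12 (7.48) and in the second track group (7.60), and it was 3.55 to 8.78 with a library left out, called without Input 1. The promoter difference was -3.59 to -2.58 with a library left out, called without ChIP replicate 1, and 2.69 when ranked by ChIP signal alone. The cause of these changes was not tested.
Differences that were not called changed sign. At a fold of 12, NR5A was -0.37, AP-1 -0.66, intergenic -1.75 and soft-masked -1.18. At a fold of 20, AP-1 was -1.23, FOXO 0.59 and RUNX 0.52. With motifs in 100 bp AP-1 was -0.34, and in 400 bp NR5A was -0.062, AP-1 -1.11 and FOXO 0.22. Ranked by ChIP signal alone, NR5A was -0.069, GATA -0.29, AP-1 -1.51, FOXO 0.11, intron -0.38, intergenic -1.64, within 10 kb 3.63, beyond 50 kb -5.64 and soft-masked -2.72. In the first track group the perfect ERE was -1.94, AP-1 -2.06, FOXO 2.95 and soft-masked -0.44. In the second, NR5A was -0.66, GATA -0.24, AP-1 -0.36, FOXO 0.86, RUNX 0.33, beyond 50 kb -0.37 and soft-masked -1.15. With a library left out, the perfect ERE was -0.88 to 2.44, NR5A -0.51 to 0.13, AP-1 -1.31 to 1.05, FOXO -0.11 to 1.11, RUNX -1.02 to 1.19 and soft-masked -0.33 to 0.86.
The difference for at least 2 EREs was 10.2 points, and 5.84 with motifs in 100 bp. The mean held-out median fold was 19.6, and 15.6, 22.9 and 21.2 under its alternatives. Of 376 refitted folds of 47 named sites, 107 moved by more than 1 SD, 63 of them lower. Depth is unknown, so counting error in the signal could not be given.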

Other observations

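A group of sites in the immunoglobulin κ locus on chromosome 6 had Rpia as its nearest protein-coding gene, more than 1 Mb away. All 14 had an Igkv4 variable segment as the nearest annotated start, and 9 lay in an Igkv4 coding exon. A perfect ERE was present in 12 of them, out of 210 sites with a perfect ERE, and 1 mismatch in the other 2. Folds ran from 5.72 to 22.5, and 2 of the sites, near Igkv4-68 and Igkv4-59, were among the strongest with folds of 22.5 and 16.2. These segments form a multigene family of near-identical copies, so the assignment of reads among them is uncertain, and the group was noticed after its values had been seen.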
